A study of Mus musculus with 24 samples.

Results

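The 8 genes described here encode the amyloid precursor protein, enzymes and enzyme subunits that cut it, and the microtubule protein tau, measured by RNA sequencing of mouse brain. They were chosen by name: App, Bace1, Psen2, Ncstn, Aph1a, Psenen, Adam10 and Mapt, 8 of the 52636 gene identifiers in the count files. All 8 passed the filter on low counts, as did 19726 genes in all. The 24 libraries came from total RNA of mouse brain, in 4 groups with 6 mice and 6 libraries in each. The syn line gave syn-Cre-positive mice labelled EAAT2 -/- and syn-Cre-negative mice labelled EAAT2 +/+. The gfap line gave gfap-Cre-positive mice labelled EAAT2 Δ/+ and gfap-Cre-negative mice labelled EAAT2 +/+. EAAT2 is the glutamate transporter encoded by Slc1a2. The synapsin (syn) promoter drives Cre in neurons and the Gfap promoter drives it chiefly in astrocytes, so the design asks how loss of EAAT2 in each cell type bears on brain gene expression. Each Cre-positive group has its own Cre-negative group from the same line. The gfap-Cre-positive label names only 1 deleted allele where the syn-Cre-positive label names both, so the lines differ in dose as well as in cell type. The sources used here give no age, sex or brain region.

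App is a membrane protein of neurons and other cells. Cutting by α-secretase, a role of ADAM10, releases the outer part of the protein within the amyloid-β stretch, whereas cutting by the β-secretase BACE1 leaves a fragment that γ-secretase trims to amyloid-β. γ-Secretase is a complex of a presenilin as the catalytic subunit (PSEN2 is one), nicastrin (Ncstn), APH1 (Aph1a is one gene for it) and PEN-2 (Psenen). Tau, the product of Mapt, binds microtubules in axons and is the protein of the neurofibrillary tangles of Alzheimer's disease. Both proteins are abundant in neurons.

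In the GENCODE M21 annotation of GRCm38, App (ENSMUSG00000022892) spans chr16:84949685-85173766 on the minus strand, Bace1 (ENSMUSG00000032086) chr9:45838580-45864399 on the plus strand and Psen2 (ENSMUSG00000010609) chr1:180227004-180263438 on the minus strand. Ncstn (ENSMUSG00000003458) spans chr1:172066013-172082795 on the minus strand, Aph1a (ENSMUSG00000015750) chr3:95893969-95898288 on the plus strand and Psenen (ENSMUSG00000036835) chr7:30561863-30563627 on the minus strand. Adam10 (ENSMUSG00000054693) spans chr9:70678997-70780229 and Mapt (ENSMUSG00000018411) chr11:104231390-104332090, both on the plus strand. Psen2, Adam10 and Mapt share no exonic base with another annotated gene. Bace1 shares 975 exonic bases with Rnf214, 951 with Gm49338 and 135 with Gm16536. Aph1a shares 445 with Car14, Ncstn 195 with Copa, and App 113 with Gm49227. Psenen shares 119 with U2af1l4 and 111 with Gm49396. All of these neighbours lie on the opposite strand. The sources used here name no strand setting for the authors' counting, so how reads from these shared bases were assigned is not known here. The files list ambiguous reads apart, at 3.19 to 7.46% of the file totals.

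App and Adam10 were the members whose level differed between the 2 lines in the comparisons that follow, and their start regions are shown to compare them. A RefSeq window on GRCm38.p6, running from 250 bases before to 50 bases after a gene's start, was found for 6 of the 8 genes, all but Bace1 and Mapt. The 250 bases before the RefSeq start are printed 5′ to 3′. For App, the GENCODE M21 span reaches to 85173766, inside the printed stretch. The 3′ end of that stretch, with its marked GGGCGG, thus lies within App as annotated in GENCODE. Capitals mark GGGCGG (the GC box) and CCAAT on either strand, so that CCGCCC and ATTGG also stand in capitals.
App, chr16:85173708-85173957, minus strand: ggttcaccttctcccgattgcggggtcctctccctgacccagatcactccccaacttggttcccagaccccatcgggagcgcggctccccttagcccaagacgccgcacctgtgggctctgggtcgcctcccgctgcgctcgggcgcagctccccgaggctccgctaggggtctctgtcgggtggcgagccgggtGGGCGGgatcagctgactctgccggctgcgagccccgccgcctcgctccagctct
Adam10, chr9:70678732-70678981, plus strand: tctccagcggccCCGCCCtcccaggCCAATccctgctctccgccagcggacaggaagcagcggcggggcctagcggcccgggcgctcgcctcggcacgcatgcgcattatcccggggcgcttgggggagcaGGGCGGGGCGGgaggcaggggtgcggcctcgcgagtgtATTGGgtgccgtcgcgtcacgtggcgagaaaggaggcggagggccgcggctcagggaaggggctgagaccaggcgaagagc
The full App window was 71.0% G and C and held 1 GGGCGG. The full Adam10 window was 73.3% G and C and held 3 GGGCGG, 2 of which overlap by 1 base, and 2 CCAAT. Of 32851 such windows in the mouse table, 35.7% held GGGCGG, 37.4% held CCAAT and 13.6% held TATAAA, and the median G and C content was 52.7%. Neither the App nor the Adam10 window held TATAAA on either strand. These matches describe letters in the window, not sites in use.

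The libraries held 41596313 to 69652824 counts in genes (median 50985761). Slc1a2 averaged 3012 ± 213 CPM (reads of the gene divided by the scaled library size) in syn-Cre-positive mice and 3322 ± 98.7 CPM in syn-Cre-negative mice, and 3480.3 ± 290.1 CPM in gfap-Cre-positive mice and 3518 ± 542 CPM in gfap-Cre-negative mice (SD, n = 6 each). Its log2 fold changes of -0.14 and -0.02 did not pass the test (edgeR adjusted p = 1.00 in both lines). Between the lines, Slc1a2 was at -0.21 among Cre-positive mice (syn minus gfap, edgeR adjusted p = 0.0440) and at -0.08 among Cre-negative mice (adjusted p = 0.437). A count over the whole gene cannot separate transcripts that lack a deleted exon. EAAT2 is also chiefly an astrocyte protein, a limit that holds for the syn line only. Slc1a2 was therefore not used to check the labels, and groups are named as labelled. Markers of neurons, astrocytes, oligodendrocytes, microglia, endothelium and choroid plexus were all detected. Transthyretin (Ttr), a choroid plexus gene, exceeded 1000 CPM in 6 libraries, namely replicates 2, 5 and 6 of the syn-Cre-positive mice and replicates 3, 4 and 6 of the syn-Cre-negative mice, and in none of the gfap line. Reads in no gene took 7.52 to 11.1% of the file totals in the syn line and 4.47 to 6.37% in the gfap line. The syn-Cre-negative replicate 5 stood apart from all other libraries, with 11.1% of reads in no gene and 7.46% ambiguous.

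The 8 genes covered a wide range of levels. By CPM per kilobase of all annotated exons, App came first, with group means from 126 to 142, and Mapt second, from 77.5 to 78.6. Psen2 came last, with group means of 3.24 to 3.28 CPM per kilobase. Dividing by the length of the principal transcript instead kept App first, Mapt second, and Bace1, Aph1a and Psen2 as the lowest 3 in that order, while the order of Psenen, Ncstn and Adam10 between them depended on the length chosen. Psen2, the least abundant of the 8, still had at least 546 reads in every library. The spread between mice differed with the gene. The coefficient of variation within a group was at most 4.07% for App and 6.39% for Mapt, and was higher at its greatest for Psen2, Aph1a and Psenen, up to 12.1% for Psenen. Over all 24 libraries, Psen2 spanned 11.8 to 15.9 CPM, Ncstn 53.3 to 68.6 CPM, Aph1a 22.1 to 31.1 CPM and Psenen 19.9 to 30.1 CPM. For each of these 4 γ-secretase genes, the ranges of all 4 groups overlapped.

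**Figure D1:**
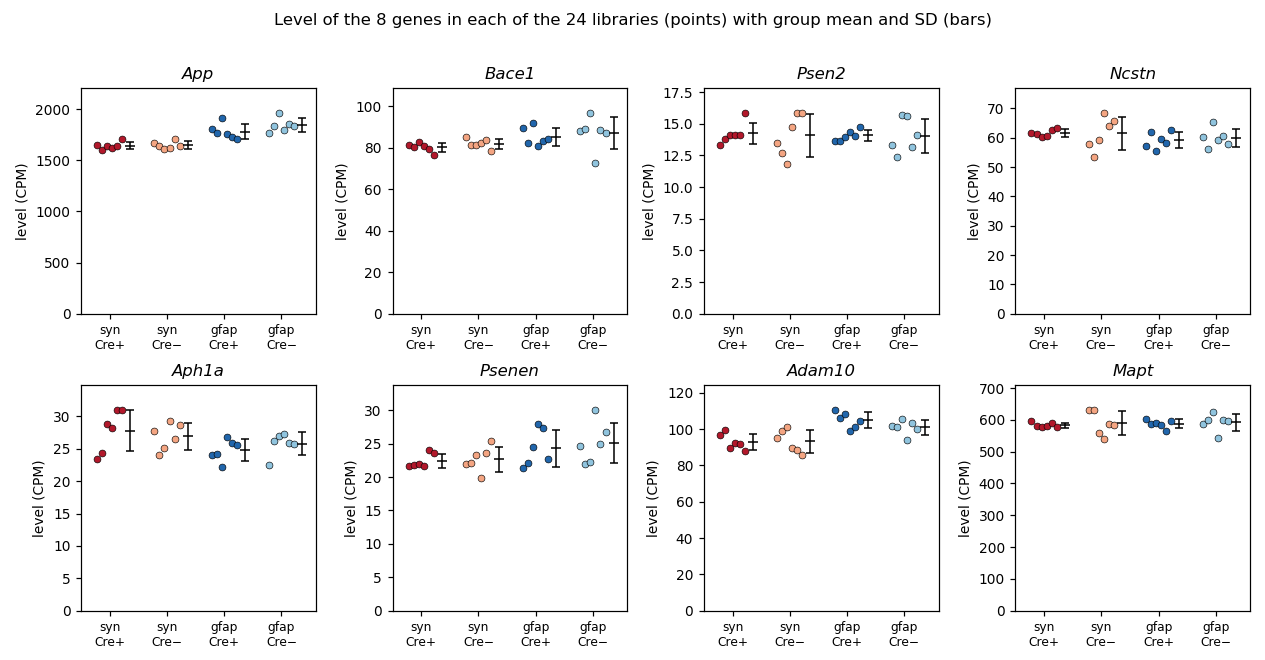
Level of each gene in CPM (vertical axis, from 0) in each library (points), by group on the horizontal axis, with the group mean and SD beside the points (n = 6 each). App sits at 1598 to 1712 CPM in the syn line and at 1710.1 to 1967 CPM in the gfap line, while the Cre-positive and Cre-negative groups of each line overlap for all 8 genes.

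Within the syn line, where EAAT2 is labelled as deleted in Cre-positive mice, none of the 8 genes passed the test. App, the precursor, ranged from 1598 to 1708 CPM with a median of 1643 in syn-Cre-positive mice, and from 1614 to 1712 CPM with a median of 1639 in syn-Cre-negative mice. The groups overlapped over nearly their whole range. The log2 fold change of App was -0.0049 with a 95% interval of -0.08 to 0.07 (edgeR quasi-likelihood test, adjusted p = 1.00). Mapt ranged from 577 to 596 CPM with a median of 580.3 in syn-Cre-positive mice, and from 540.4 to 633 CPM with a median of 585 in syn-Cre-negative mice. All syn-Cre-positive values of Mapt lay inside the range of the Cre-negative mice, whose SD was 37.7 CPM against 7.95 CPM in Cre-positive mice, a difference in spread that was not tested. The log2 fold change of Mapt was -0.01 (95% interval -0.10 to 0.07).

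The genes of the cutting enzymes did not pass the test either. Bace1, the β-secretase, ranged from 76.3 to 82.6 CPM with a median of 80.4 in syn-Cre-positive mice, and from 78.2 to 85.2 CPM with a median of 81.5 in syn-Cre-negative mice. Adam10, the α-secretase, ranged from 88.2 to 99.6 CPM with a median of 92.0 in syn-Cre-positive mice, and from 85.6 to 101 CPM with a median of 92.4 in syn-Cre-negative mice. Both genes overlapped between the groups. Of the γ-secretase genes, the presenilin Psen2 had a median of 14.1 CPM in both groups. Ncstn, which carries the docking part for substrates, had medians of 61.4 and 61.6 CPM, Aph1a of 28.5 and 27.1 CPM, and Psenen of 21.9 and 22.7 CPM in syn-Cre-positive and syn-Cre-negative mice. The 8 log2 fold changes lay between -0.03 (Bace1) and 0.05 (Aph1a), none at an unadjusted p under 0.05, and their 95% intervals together ran from -11.1% to 14.1%. Of all genes tested, 0.00507% were called (1 gene), 4.67% had an unadjusted p under 0.05 and 0.203% had groups that did not overlap. The median log2 fold change was -0.0038 over the 8 genes and -0.0029 over all genes.

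Within the gfap line, none of the 8 genes passed the test either. App ranged from 1710.1 to 1909 CPM with a median of 1760.3 in gfap-Cre-positive mice, and from 1768 to 1967 CPM with a median of 1832 in gfap-Cre-negative mice. The Cre-positive values were shifted down but overlapped the Cre-negative ones. The log2 fold change of App was -0.05 (95% interval -0.13 to 0.03, adjusted p = 1.00). Adam10 ranged from 98.8 to 111 CPM with a median of 105 in gfap-Cre-positive mice, and from 93.8 to 106 CPM with a median of 101 in gfap-Cre-negative mice. Its groups overlapped too, and its log2 fold change of 0.06 (95% interval -0.04 to 0.15) was the highest of the 8. Mapt had medians of 589.8 CPM in gfap-Cre-positive and 598 CPM in gfap-Cre-negative mice, and Bace1 of 83.5 and 88.3 CPM. For Bace1, the gfap-Cre-negative mice spread from 72.8 to 96.9 CPM and enclosed all gfap-Cre-positive mice, which spread from 80.8 to 91.9 CPM. The low end was replicate 4 alone, as the other gfap-Cre-negative mice lay at 87.1 to 96.9 CPM. Without that library, 1138 of 19941 genes had an unadjusted edgeR p under 0.05, against 590 of 19726 with it. None of the 8 genes was among them in either fit.

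The γ-secretase genes did not pass in the gfap line. Psen2 had medians of 14.0 CPM in gfap-Cre-positive and 13.7 CPM in gfap-Cre-negative mice, Ncstn of 58.8 and 59.8 CPM, Aph1a of 25.0 and 26.1 CPM, and Psenen of 23.6 and 24.8 CPM. All 4 overlapped between groups. The lowest log2 fold change of the 8 was -0.06 (Aph1a), the 8 intervals together ran from -13.0% to 11.1%, and none had an unadjusted p under 0.05. Of all genes tested, 0.0101% were called (2 genes), 2.99% had an unadjusted p under 0.05 and 0.198% did not overlap. The median log2 fold change was -0.02 over the 8 genes.

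The effect of Cre was also compared between the lines, as the syn effect minus the gfap effect. None of the 8 genes passed, against 0.0101% of all genes (2 called) and 3.50% at an unadjusted p under 0.05. The differences in log2 fold change ran from -0.06 for Adam10 (95% interval -0.19 to 0.08) to 0.10 for Aph1a (95% interval -0.10 to 0.31). No member reached an unadjusted p under 0.05. These intervals show what size of difference the 24 libraries leave possible, and a missed threshold does not show equal effects.

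**Figure D2:**
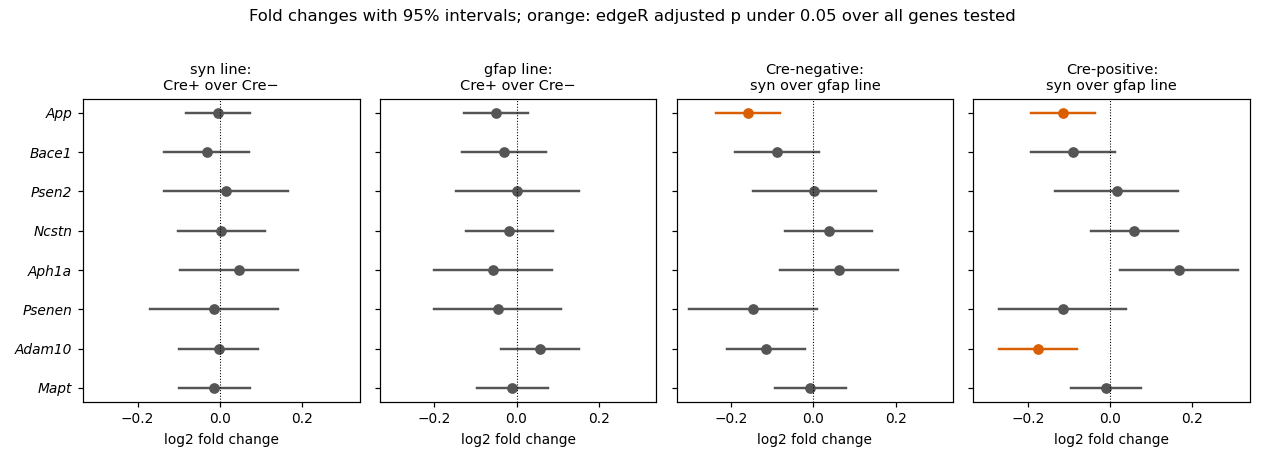
Log2 fold change of each gene (points) with its 95% interval (lines) on the horizontal axis, in the Cre comparisons of the syn and gfap lines and in the comparisons of the syn with the gfap line among Cre-negative and among Cre-positive mice. Orange marks an adjusted p under 0.05, reached by App at -0.16 among Cre-negative mice and by App at -0.11 and Adam10 at -0.18 among Cre-positive mice.

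The members called by edgeR were found in the comparisons of the 2 lines. Among Cre-negative mice, App was lower in the syn line than in the gfap line. As given above, it reached 1712 CPM at most in syn-Cre-negative mice and 1768 CPM at least in gfap-Cre-negative mice, so the groups did not overlap. On the log2 scale the difference was -0.16 ± 0.04 (SE; 95% interval -0.24 to -0.08) with an edgeR adjusted p of 0.00254, and the level changed by -10.4%. App was the 1 of 8 members called. Of all genes, 31.2% were called in this comparison, 16.6% lower and 14.6% higher, and 5.43% were lower without overlap, so 1 of 8 is no more than the background. At an unadjusted p under 0.05 stood 2 of the 8 members and 41.9% of all genes. In bulk tissue, fewer cells of a type and less RNA per cell cannot be told apart.

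Among Cre-positive mice, App and Adam10 were lower in the syn line. App reached 1708 CPM at most in syn-Cre-positive mice and 1710.1 CPM at least in gfap-Cre-positive mice, so the groups met without overlapping. On the log2 scale the difference was -0.11 ± 0.04 (SE; 95% interval -0.19 to -0.04), with an edgeR adjusted p of 0.0261. Adam10 averaged 93.0 ± 4.33 CPM in syn-Cre-positive mice and 105 ± 4.46 CPM in gfap-Cre-positive mice (SD, n = 6 each), and 5 of the 6 syn-Cre-positive mice lay below every gfap-Cre-positive mouse. The log2 difference of Adam10 was -0.18 ± 0.05 (SE; 95% interval -0.27 to -0.08), with an edgeR adjusted p of 0.00661. The 2 of 8 members called stand beside 27.5% of all genes called, 14.7% lower and 12.8% higher, with 7.64% lower without overlap. At an unadjusted p under 0.05 stood 3 of the 8 members and 38.8% of all genes. Among Cre-negative mice, Adam10 was at -0.12 and missed the threshold (adjusted p = 0.0580).

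The other members did not pass in either comparison of the lines. Bace1 was at -0.09 in both (adjusted p = 0.181 in Cre-negative and 0.184 in Cre-positive mice), and Psenen at -0.15 and -0.12 (adjusted p = 0.141 and 0.266). Mapt was at -0.01 in both, Psen2 at 0.0020 and 0.02, and Ncstn at 0.04 and 0.06. The 95% interval of Mapt among Cre-positive mice ran from -0.10 to 0.08. Aph1a, a γ-secretase scaffold subunit, was at 0.06 in Cre-negative mice and at 0.17 in Cre-positive mice (adjusted p = 0.524 and 0.0766). The Cre-positive difference passed with DESeq2 (0.20, adjusted p = 0.0360) and, by edgeR, without syn-Cre-positive replicate 1 or 2 or gfap-Cre-negative replicate 4. Car14, the opposite-strand neighbour that shares 12.9% of the exonic bases of Aph1a, averaged 11.2 CPM in syn-Cre-positive and 5.59 CPM in gfap-Cre-positive mice, with a log2 fold change of 1.00 (adjusted p = 0.00372). Among Cre-negative mice, where Aph1a was at 0.06, Car14 averaged 10.9 CPM in the syn line and 5.71 CPM in the gfap line, with a log2 fold change of 0.94 (adjusted p = 0.00481). Whether any reads of Car14 entered the Aph1a counts was not tested. The median log2 fold change of the 8 genes was -0.05 in both comparisons, against -0.02 over all genes.

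The calls in App and Adam10 were lost without the 6 libraries above 1000 CPM of Ttr, which left 3 mice in each syn group. Calls over all genes fell too, from 6161 of 19726 to 3647 of 20194 among Cre-negative mice. Among Cre-positive mice they fell from 5416 to 2259. The part of the smaller groups in these losses was not tested. App was then at -0.12 among Cre-negative mice (adjusted p = 0.0710) and at -0.09 among Cre-positive mice (adjusted p = 0.196), and Adam10 at -0.15 among Cre-positive mice (adjusted p = 0.0756). Within the syn line, App had a median of 1644 CPM in the 3 Ttr-rich and 1642 CPM in the other 3 syn-Cre-positive libraries, and of 1621 CPM in the 3 Ttr-rich and 1669 CPM in the other 3 syn-Cre-negative libraries. The App call among Cre-positive mice was also lost without syn-Cre-positive replicate 2, gfap-Cre-positive replicate 2, 3 or 5, or gfap-Cre-negative replicate 5, and it was kept in 22 of the 33 processing alternatives in all. The line cannot be told apart from anything else that differed between the mice or libraries of the 2 lines, such as the share of reads in no gene.

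Most markers of neurons, oligodendrocytes and choroid plexus also differed between the lines. Counts of markers called are to be read beside the shares of all genes. Among Cre-negative mice, 14.6% of all genes were called higher and 16.6% lower in the syn line, and among Cre-positive mice 12.8% and 14.7%. Of 12 neuron markers, 10 were lower in the syn line among Cre-negative mice and 8 among Cre-positive mice. Their summed level was 7895 to 8547 CPM in syn-Cre-positive and 7808 to 9029 CPM in syn-Cre-negative mice, against 9207 to 10754 CPM in gfap-Cre-positive and 9532 to 10524 CPM in gfap-Cre-negative mice. Of 10 oligodendrocyte markers, 9 were higher in the syn line among Cre-negative mice and 10 among Cre-positive mice. Their sum was 6129 to 8202 CPM in syn-Cre-positive and 5724 to 8866 CPM in syn-Cre-negative mice, against 3866 to 5708 CPM in gfap-Cre-positive and 4353 to 5570 CPM in gfap-Cre-negative mice. The neuron marker sums did not overlap between the lines, and neither did the oligodendrocyte sums. Of 10 choroid plexus markers, 10 were higher among Cre-negative and 8 among Cre-positive mice of the syn line, with sums of 282 to 6838 CPM in syn-Cre-positive and 317 to 7361 CPM in syn-Cre-negative mice, against 221 to 534 CPM in gfap-Cre-positive and 212 to 453 CPM in gfap-Cre-negative mice. No marker gene was at 0 in all libraries, and the part of these cell types in the App and Adam10 results was not tested. Without the Ttr-rich libraries, 3 neuron markers were lower in either comparison, 9 and 8 oligodendrocyte markers were higher among Cre-negative and Cre-positive mice, and no choroid plexus marker was higher. In that fit, 2097 of 20194 genes were called higher and 1550 lower among Cre-negative mice, and 1580 and 679 among Cre-positive mice. Among Cre-negative mice, 1 of 10 astrocyte markers was higher and 2 were lower, and 1 of 8 microglia and 2 of 8 endothelial markers were lower. Among Cre-positive mice, 2 astrocyte markers were higher and 2 lower, and 3 microglia and 5 endothelial markers were lower. Of 7 cerebellum markers tested, 1 was lower among Cre-negative mice, and 4 were higher and 1 lower among Cre-positive mice. Some of these were near the floor, with group means of 0.11 to 0.34 CPM for Pcp2 and 0.31 to 0.63 CPM for Cbln3. Gabra6 and Barhl1 of that list did not pass the filter on low counts. The hippocampus marker Fibcd1 had group means of 147 to 219 CPM. Of 9 hippocampus markers, 1 was higher and 3 were lower among Cre-negative mice, and 1 was higher and 2 were lower among Cre-positive mice. Of 8 cortex markers, 1 was lower among Cre-negative mice, and the 8 striatum markers did not pass the test in either comparison. In the Cre comparisons, 1 gene of the 6 cell type lists was called, the astrocyte water channel gene Aqp4 in the syn line.

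**Figure D3:**
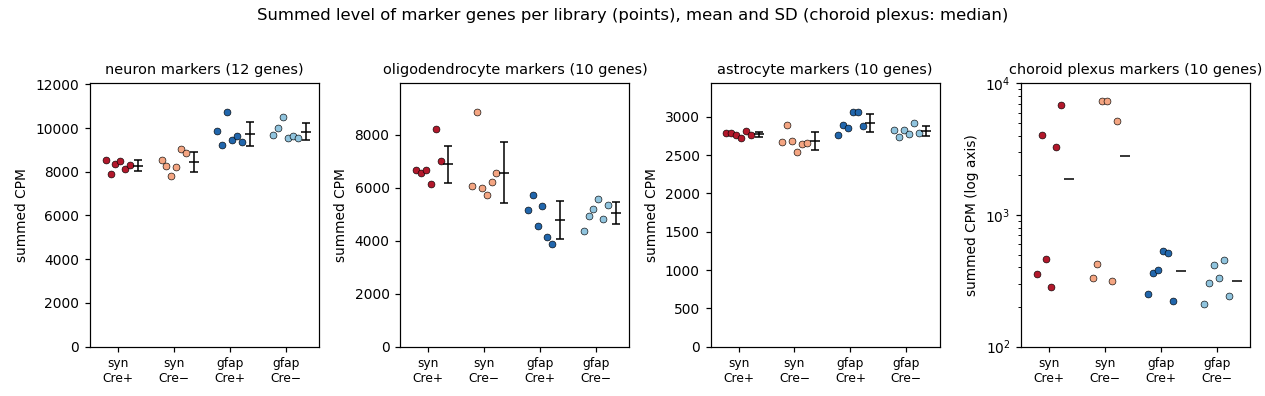
Summed CPM of marker genes of 4 cell types in each library (points), with the group mean and SD, or the median for choroid plexus, whose axis is logarithmic. Neuron markers run from 7808 to 9029 CPM in the syn line and from 9207 to 10754 CPM in the gfap line, and oligodendrocyte markers from 5724 to 8866 CPM in the syn line and from 3866 to 5708 CPM in the gfap line.

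The balance between members was measured as the log2 ratio of the counts of 2 genes within a library, for 6 ratios in 4 comparisons. None of these 24 passed an exact permutation test over all 924 arrangements of the mice after Benjamini-Hochberg adjustment, the smallest adjusted p being 0.571. The smallest p that this test can give for 6 against 6 mice is 0.00216. After adjustment over 24 tests, a single ratio could therefore not pass alone, even with groups fully apart. The missed threshold does not show that the ratios were equal. The ratio of Adam10 to Bace1, the α- and β-secretase genes, averaged 0.30 ± 0.04 in gfap-Cre-positive mice and 0.22 ± 0.08 in gfap-Cre-negative mice, a difference of 0.08 (SD, n = 6 each, exact two-sided permutation p = 0.0476, adjusted p = 0.571). It averaged 0.22 ± 0.07 in syn-Cre-positive mice, a difference of -0.09 from gfap-Cre-positive mice (exact permutation p = 0.0238, adjusted p = 0.571). The groups overlapped in both cases. Within the gfap line the overlap came from gfap-Cre-negative replicate 4 alone, at 0.366. The other gfap-Cre-negative mice were at 0.127 to 0.222, and gfap-Cre-positive mice at 0.240 to 0.371. The ratio of Psenen to Ncstn, 2 subunits of one complex, differed by -0.18 in syn-Cre-negative against gfap-Cre-negative mice and by -0.17 in syn-Cre-positive against gfap-Cre-positive mice (exact permutation p = 0.147 and 0.0801). The ratio of App to its relative Aplp2 differed between the lines by -0.05 in both comparisons, and that of Mapt to Map2, another neuronal microtubule protein, by 0.10 in Cre-negative and 0.13 in Cre-positive mice, and neither passed (exact permutation p from 0.121 to 0.344).

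**Figure D4:**
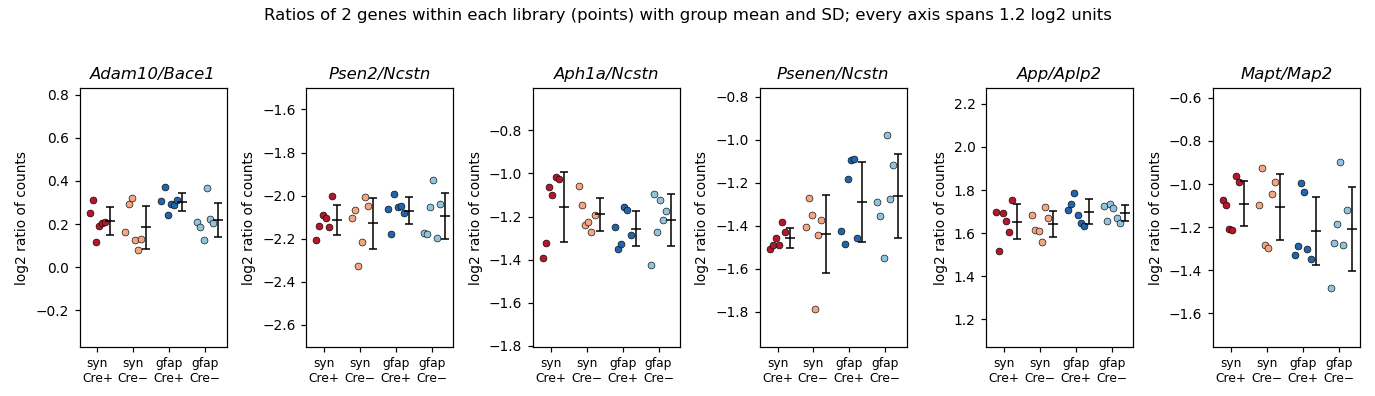
Log2 ratio of the counts of 2 genes within each library (points) by group, with the group mean and SD (n = 6 each); every vertical axis spans the same 1.2 log2 units. The groups overlap in all 6 ratios, the Adam10 to Bace1 ratio averaging 0.22 and 0.18 in syn-Cre-positive and syn-Cre-negative mice and 0.30 and 0.22 in gfap-Cre-positive and gfap-Cre-negative mice.

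Other genes of the pathway were read from 6 lists, and in neither Cre comparison was any of them called. The lists held 11 genes of the APP family and other secretases, 16 of 17 tested genes for APP sorting and adaptors, 7 of 8 for amyloid-β degradation, 13 for other secretase substrates, 21 for tau kinases and phosphatases and 16 for other microtubule-associated proteins. The lowest unadjusted p in the secretase list was that of Aph1b, the second APH1 gene named here, at -0.17 in the syn line (unadjusted p = 0.00827, edgeR adjusted p = 0.841). Mark1, a tau kinase, was at -0.10 in the syn line, and Map6, a microtubule stabiliser, at -0.11 in the gfap line, both with an adjusted p of 1.00.

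Between the lines some genes of each list were called, counts to be read beside the shares of all genes. Among Cre-negative mice 31.2% of all genes were called, 14.6% higher and 16.6% lower in the syn line. Among Cre-positive mice these shares were 27.5%, 12.8% and 14.7%. In the secretase list, 1 of 11 genes was higher and 2 were lower in the syn line in either comparison, near those shares. Adam17, another α-secretase, was higher at 0.27 in Cre-negative and 0.24 in Cre-positive mice (edgeR adjusted p = 0.00215 and 0.00542). The App relatives Aplp1 and Aplp2 were lower among Cre-negative mice, at -0.23 and -0.11 (adjusted p = 0.000908 and 0.0288), and stood at -0.11 and -0.07 among Cre-positive mice without passing. Tspan5, a tetraspanin partner of ADAM10, and Aph1b were the lower genes among Cre-positive mice, at -0.17 and -0.16 (adjusted p = 0.0324 and 0.0476). The Aplp2 call was kept in 18 of 33 processing alternatives, that of Tspan5 in 20 and that of Aph1b in 10, while those of Aplp1 and Adam17 were kept in all 33. In the sorting list of 16 tested genes, 3 were higher and 8 lower among Cre-negative mice, and 2 higher and 6 lower among Cre-positive mice. Rtn3, a reticulon that binds BACE1, was lower at -0.22 and -0.24. Gga3, which sorts BACE1 to lysosomes, was higher at 0.27 and 0.21. Itm2c, of the family of BRI proteins, was lower at -0.26 and -0.25.

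Of 7 tested genes for amyloid-β degradation, 2 were higher and 2 lower among Cre-negative mice, and 1 was higher and 1 lower among Cre-positive mice. The same shares of all genes stand beside these counts. Ece2, an endothelin-converting peptidase, was higher at 0.26 and 0.25, and Ctsb, a lysosomal protease, lower at -0.13 and -0.12. The Ctsb call was kept in 29 of 33 alternatives among Cre-negative and in 19 among Cre-positive mice. Ace, a peptidase of choroid plexus and vessels, was higher at 1.88 among Cre-negative mice (adjusted p = 0.0195), but stood at -0.057 without the Ttr-rich libraries (adjusted p = 0.814). Of the 13 other secretase substrates, 7 were lower among Cre-negative mice, beside 16.6% of all genes. Among Cre-positive mice 4 were lower and 1 higher, beside 14.7% and 12.8% of all genes. The ephrin receptor gene Epha4 was lower at -0.36 and -0.25, and the synaptic adhesion gene Nlgn1 at -0.37 and -0.22. The neuregulin gene Nrg1 was the higher one among Cre-positive mice, at 0.53.

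Of the 21 tau kinase and phosphatase genes, 10 were lower and none higher in the syn line among Cre-negative mice, and 7 were lower and none higher among Cre-positive mice, whereas Mapt itself was at -0.01 in both. Cdk5r1, the p35 activator of the tau kinase CDK5, was lower at -0.37 and -0.27 (edgeR adjusted p = 1.6e-06 and 0.000100). Ppp2ca, the catalytic subunit of the main tau phosphatase, was lower at -0.23 and -0.22, and the tyrosine kinase gene Fyn at -0.20 in both. Of the other microtubule-associated genes, 6 were lower among Cre-negative mice, and 5 were lower and 1 higher among Cre-positive mice. Stmn2 and Stmn3, stathmins that bind free tubulin, were lower at -0.31 and -0.31 among Cre-negative mice and at -0.26 and -0.26 among Cre-positive mice. Stmn2 is also one of the 12 neuron markers above. Without the Ttr-rich libraries, 6 tau kinase and phosphatase genes were lower among Cre-negative and 2 among Cre-positive mice, and 1 microtubule-associated gene in either comparison. The lower genes then numbered 3 and 2 in the sorting list and 5 and 0 among the other substrates. In the fit without the Ttr-rich libraries, 1550 of 20194 genes were called lower among Cre-negative mice and 679 among Cre-positive mice. The counts from all 24 libraries stand beside the 16.6% and 14.7% of all genes called lower in the 2 comparisons. All of these counts share libraries with the App and Adam10 results.

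**Figure D5:**
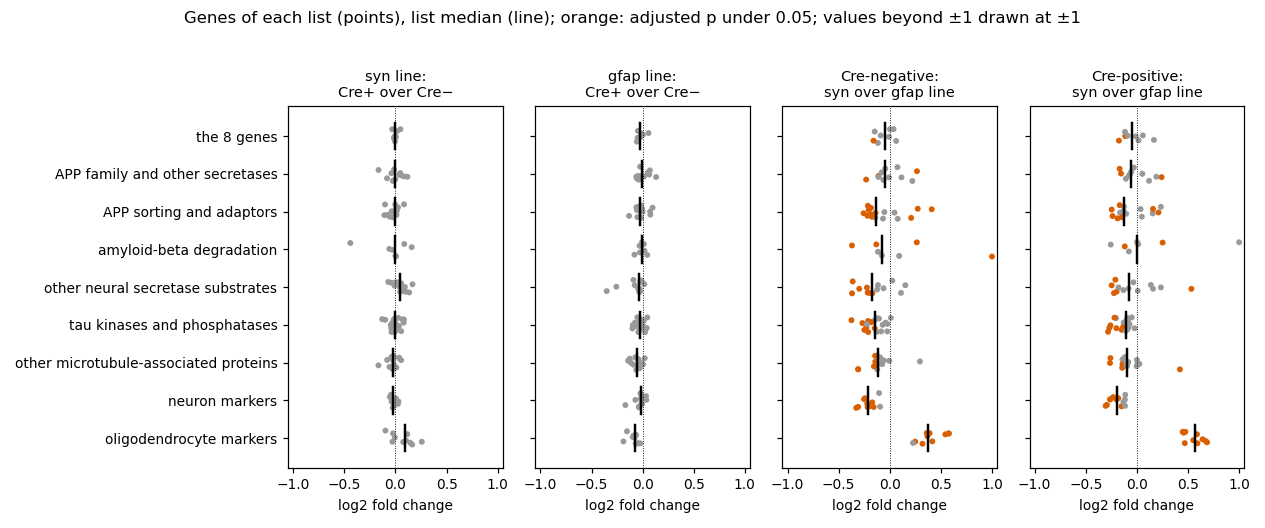
Log2 fold change (horizontal axis) of the genes of each list (points, one row a list) in the 4 comparisons, with the list median as a line and orange for an adjusted p under 0.05; values beyond 1 in size are drawn at 1. The Cre comparisons show no orange point in the rows drawn, while tau kinases and phosphatases have 10 and 7 lower genes in the comparisons of the lines.

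The genes whose pattern over the 24 libraries was most like that of each member were found by the root-mean-square distance of centred log2 CPM, where a small value means 2 genes moved together and by the same amount. App lay nearest to Man1b1 (0.04) and Smap2 (0.04), Bace1 to Trappc10 and Zfp91 (0.04 each), and Adam10 to Tnks2 (0.04) and Cul5 (0.05). Mapt lay nearest to Spire1 and Cep120 (0.04 each), Psen2 to Rbm7 and Vps51, Ncstn to Cog2 and Qars, Aph1a to Vps16 and Ctdsp1, and Psenen to Cox4i1 and Psmc4. The closest members were App and Bace1, at 0.07, and the farthest were Aph1a and Adam10, at 0.21. For scale, the median distance of App to all genes was 0.22. All of these distances mix differences between the lines with those between mice, and the measure is small for any pair of genes that vary little.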

How the data were processed

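Total RNA of mouse brain was sequenced in 24 libraries, 6 mice in each of 4 groups on an Illumina instrument, per the labels' protocols. The authors deposited 1 table of raw counts per gene for each library, not normalized. Per the submitters' processing notes, the tools were HTSeq 0.6.0, DESeq2 1.6.3 and HISAT2, and the genome build was mm10. No HISAT2 version, strand setting or annotation was named in the sources used here. Gene symbols came from GENCODE M21 and were found for 52403 of 52636 identifiers. The 5 summary lines of each file, among them the reads in no gene (4.47 to 11.1% of a file's total), entered neither the library sizes nor the tests.

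Counts were filtered with edgeR 4.0.16 (filterByExpr), scaled by TMM and fitted in 1 quasi-likelihood model of the 4 groups, which gives 20 residual degrees of freedom. All groups share 1 estimate of the spread. Contrasts were tested over all 19726 genes with Benjamini-Hochberg adjustment, and a gene was called at an adjusted p under 0.05. Log2 CPM values used a prior count of 2. Ratios used counts plus 0.5. Alternatives were RLE and upper-quartile scaling, other filters, DESeq2 1.42.0, limma-voom 3.58.1 with quality weights or with the title prefix as a random effect, other sets of libraries and the omission of each library in turn. For the pathway lists these alternatives were added after the data were seen. The procedure was run on simulated data, where every planted change was larger than any difference seen in the 8 genes. That run does not bear on changes as small as theirs. Of 60 replicate pairs compared, none agreed within sampling noise, so none was counted as 1 sample. From each list, genes were named by the smallest p, up to 3 per comparison, except 1 gene that is not reported here. The 8 genes and all lists were chosen with earlier results of these data known. The intervals cover the spread between mice and counting error, not differences in processing.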

Additional observations from a re-analysis of the deposited data

Results flagged for a closer look

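In 3 groups of 6 mice, 1 mouse lay far from the others, judged by its gap to the nearest mouse relative to the range of the group. Psen2 was at 15.8 CPM in syn-Cre-positive replicate 6, against 13.3 to 14.1 CPM in the other syn-Cre-positive mice. Aph1a was at 22.4 CPM in gfap-Cre-negative replicate 1, against 25.7 to 27.3 CPM in the other gfap-Cre-negative mice. The log2 ratio of Psenen to Ncstn was -1.79 in syn-Cre-negative replicate 4, against -1.44 to -1.27 in the other syn-Cre-negative mice, and that library is also one of the 6 above 1000 CPM of Ttr. Of the 56 groups examined, chance alone would mark about 1 in 20, or 2.8, so 3 is close to that number.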

How the results depend on the processing

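In the Cre comparisons and their difference, all 784 values of the members under the alternatives kept their side of the threshold, with a lowest adjusted p of 0.865. All 624 ratio values, over the 4 comparisons of groups, did too, with a lowest adjusted p of 0.104. For the ratios this says little. Leaving mice out does not lower the smallest p of the permutation test, so a single ratio could not have passed alone in any of these settings. The number of all genes called for syn Cre, 1 by edgeR, was 5 without a filter, 14 with DESeq2, 7 with limma-voom and quality weights, 1 with limma-voom and the title prefix as a random effect, 2 with only the compared groups in the fit, 3 without the Ttr-rich libraries and 1 to 4 with each library left out in turn. Among Cre-negative mice, 3 members were called between the lines with limma-voom and quality weights (App, Adam10 and Bace1), 1 with the title prefix as a random effect, 0 without the Ttr-rich libraries, and 1 to 3 with a library left out, and 3647 genes in all without the Ttr-rich libraries. Among Cre-positive mice, 1 member was called without a filter, 1 with only the compared groups, 0 without the Ttr-rich libraries and 1 to 3 with a library left out, and 2259 genes in all without the Ttr-rich libraries. Among Cre-positive mice the App call was kept in 22 of 33 alternatives. Beside the libraries named in the results, it was lost under RLE (-0.08, adjusted p = 0.0789) and upper-quartile scaling (-0.07, adjusted p = 0.160), without a filter (-0.13, adjusted p = 0.0587), with a filter of 1 CPM in 6 libraries (-0.07, adjusted p = 0.143) and with only the compared groups (-0.09, adjusted p = 0.0927). Aph1a was called higher under both scalings (0.19 and 0.21) and the 1 CPM filter (0.21). The share of calls that were higher was 46.8% among Cre-negative mice (52.8% under RLE, 58.5% under upper-quartile scaling) and 46.5% among Cre-positive mice (58.0% and 65.5%). The value of Ace among Cre-negative mice reversed to -0.057 without the Ttr-rich libraries. The cause of these changes was not tested. No paired analysis was possible because each of the 10 prefixes of the sample titles, whose meaning is not stated, occurs in 1 group. Taken as a random effect in limma-voom, the prefix had a correlation of 0.03 and changed no member's call. The study measured RNA of bulk tissue, so protein, cutting activity, splice forms of Mapt and single cell types were not measured.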
